A study of Mus musculus with 12 samples.

Results

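The genes described here encode receptors, receptor partners and a ligand through which blood vessels respond to the peptide adrenomedullin and to the lipids sphingosine-1-phosphate (S1P) and lysophosphatidic acid (LPA). They were chosen by name, as vascular G protein-coupled receptors and their partners, with earlier results of these data known. They comprise *Calcrl*, *Ramp1*, *Ramp2*, *Ramp3*, *Adm*, *S1pr1*, *S1pr2*, *S1pr3*, *Lpar1* and *Lpar6*, which are 10 of the 35727 genes in the count table. All 10 passed the filter on low counts, which 15506 genes passed. The study used retroviruses to express the transcription factors *Sox17* and *Erg* in cardiac fibroblasts of neonatal mice, and asked how these cells, termed induced endothelial cells (iECs), took on endothelial identity. RNA from *Sox17*-*Erg* cultures and from control fibroblasts, whose columns are named for the retroviral backbone (PMX), was sequenced on Day 3, on Day 7 and after 4 weeks (6 groups of 2 libraries). The methods name no sorting of cells before RNA isolation. By the study's flow cytometry, cells positive for both PECAM1 and CDH5 were a minority of *Sox17*-*Erg* samples on Day 7. The term *Sox17*-*Erg* cells therefore means whole cultures here, and levels and shares are not those of converted cells alone. The labels give the same medium, EGM2, for both arms, and the methods state that viruses of compared conditions were made on the same day. The fibroblasts came from pooled hearts and were depleted of PECAM1-positive cells and selected on THY1 according to the study's methods, so a library is a culture of mixed animals and not a single mouse. Nothing in the labels says that the libraries of a group came from separate isolations, and p-values then measure only the spread between these libraries, which may be technical.

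CALCRL is a receptor that reaches the cell surface with a receptor activity-modifying protein (RAMP). With RAMP1 it binds calcitonin gene-related peptide (CGRP), and with RAMP2 or RAMP3 it binds adrenomedullin, which signals through cyclic AMP and is known for its part in vessel growth and barrier function. S1P, carried in blood, acts on endothelial S1PR1 through Gi proteins to stabilize junctions, whereas S1PR2 and S1PR3 also couple to G12/13 and Gq and are prominent in mural cells and fibroblasts. LPA acts through LPAR1, a main receptor of fibroblasts, and through LPAR6, a receptor of the P2Y-related family.

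Promoter sequence was examined because SOX and ETS proteins, the families of *Sox17* and *Erg*, bind short DNA motifs. The RefSeq table (GRCm38.p6) held windows of 250 bases before to 50 bases after the start site for 8 of the 10 genes, in 10 windows, and *Ramp2* and *S1pr1* were not among them. The letters ACAATG (SOX) and GGAAGT (ETS), which cannot overlap each other by more than their end letters, were searched on both strands. ACAATG was found in 12.6% and GGAAGT in 23.8% of all 32851 promoter windows. Positions were counted from the RefSeq start. *Calcrl* held ACAATG 220 bases before its start, *Ramp3* and *Adm* held GGAAGT at 189 and 215 bases before theirs, and of the 3 windows of *Lpar1* one held GGAAGT at 82 and another ACAATG at 48 bases before the start. The GENCODE start of *Calcrl* lies upstream of its RefSeq start and so closer to the match. No match to these letters was found in the windows of *Ramp1*, *S1pr2*, *S1pr3* and *Lpar6*. Parts of 3 windows are shown because these genes were higher in *Sox17*-*Erg* cells at every time point, with the matched letters in capitals (ACTTCC is GGAAGT on the opposite strand) and no match in the last. Each part runs from the upstream end of its window to the base before the first start in RefSeq or GENCODE. They lie at chr2:84425412-84425516 on the minus strand, chr11:6658283-6658520 on the plus strand and chr14:73237641-73237890 on the plus strand.
Calcrl: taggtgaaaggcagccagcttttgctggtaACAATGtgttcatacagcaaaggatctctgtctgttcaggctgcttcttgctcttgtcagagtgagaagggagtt
Ramp3: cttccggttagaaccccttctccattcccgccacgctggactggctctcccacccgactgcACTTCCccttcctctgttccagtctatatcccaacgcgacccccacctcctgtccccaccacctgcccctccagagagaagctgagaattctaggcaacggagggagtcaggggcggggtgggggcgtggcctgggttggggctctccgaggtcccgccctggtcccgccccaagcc
Lpar6: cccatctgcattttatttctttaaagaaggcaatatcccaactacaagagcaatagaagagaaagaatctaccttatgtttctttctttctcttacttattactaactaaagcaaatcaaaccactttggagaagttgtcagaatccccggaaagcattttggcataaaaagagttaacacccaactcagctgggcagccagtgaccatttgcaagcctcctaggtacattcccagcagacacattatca

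Library totals were 19011635 to 41240449 estimated counts. *Sox17* was at 9 counts or fewer in every control library and at 432 to 1040 CPM (counts scaled to the library total) in *Sox17*-*Erg* libraries, which matches the labels, although the estimates do not separate the transgene from the native gene. The 8 endothelial markers examined (*Pecam1*, *Cdh5*, *Kdr*, *Tek*, *Tie1*, *Esam*, *Emcn* and *Vwf*) summed to 19.9 to 54.3 CPM in control and 308 to 771 CPM in *Sox17*-*Erg* libraries. The 8 fibroblast markers summed to 12500 to 35800 CPM in control and 10100 to 39100 CPM in *Sox17*-*Erg* libraries. Most of this sum came from *Col1a1*, *Col1a2* and *Postn* in both arms. On Day 3 only *Tcf21* of the 8 was called lower, with a mean of 30.8 CPM against 217 in control (adjusted p = 0.0295, edgeR). The mean of *Lum* was 15.7 CPM against 78.7, which did not pass (adjusted p = 0.064). *Col1a1* and *Postn* differed by 0.0009 and 0.35 on the log2 scale and were not called. In such bulk libraries, fewer cells of a type and less RNA per cell cannot be told apart.

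Against control, *Sox17*-*Erg* cells showed 4 of the 10 genes higher and 3 lower on Day 3. By Day 7 the counts were 4 higher and 4 lower, and after 4 weeks 5 higher and 5 lower (edgeR quasi-likelihood test, adjusted p under 0.05). The share of all tested genes called higher was 7.19%, 9.48% and 11.9% in that order, and the share called lower 5.13%, 7.93% and 11%. *Calcrl*, *Ramp3*, *S1pr1* and *Lpar6* were higher at all 3 time points, a call made for 3.59% of all genes, and *S1pr2* and *Lpar1* were lower at all 3, a call made for 2.27%. The median log2 fold change of the 10 genes was -1.15, -0.17 and 0.07 on Day 3, Day 7 and 4 weeks, beside 0.01, 0.01 and -0.01 over all genes. At every time point the libraries of the 2 arms did not overlap for 4 genes that were higher (*Calcrl*, *Ramp3*, *S1pr1* and *Lpar6*) and 5 that were lower (*Ramp2*, *Adm*, *S1pr2*, *S1pr3* and *Lpar1*). Such separation was seen for 14.6% of all genes in the higher and 13.6% in the lower direction. Because the 10 genes were chosen with earlier results of these data known, the shares over all genes do not test them as a set. A two-sided exact permutation test within time points gave p = 0.0093 for each of these 9 genes, the smallest value that this design allows, and p = 0.8 for *Ramp1*, which reversed its direction over time. Separation in 1 direction at all 3 time points fixes p at this smallest value, so it only restates the separation and adds no support to it. These p-values were not adjusted for the 10 genes. Within one time point the lowest p such a test can reach is 0.33.

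**Figure D1:**
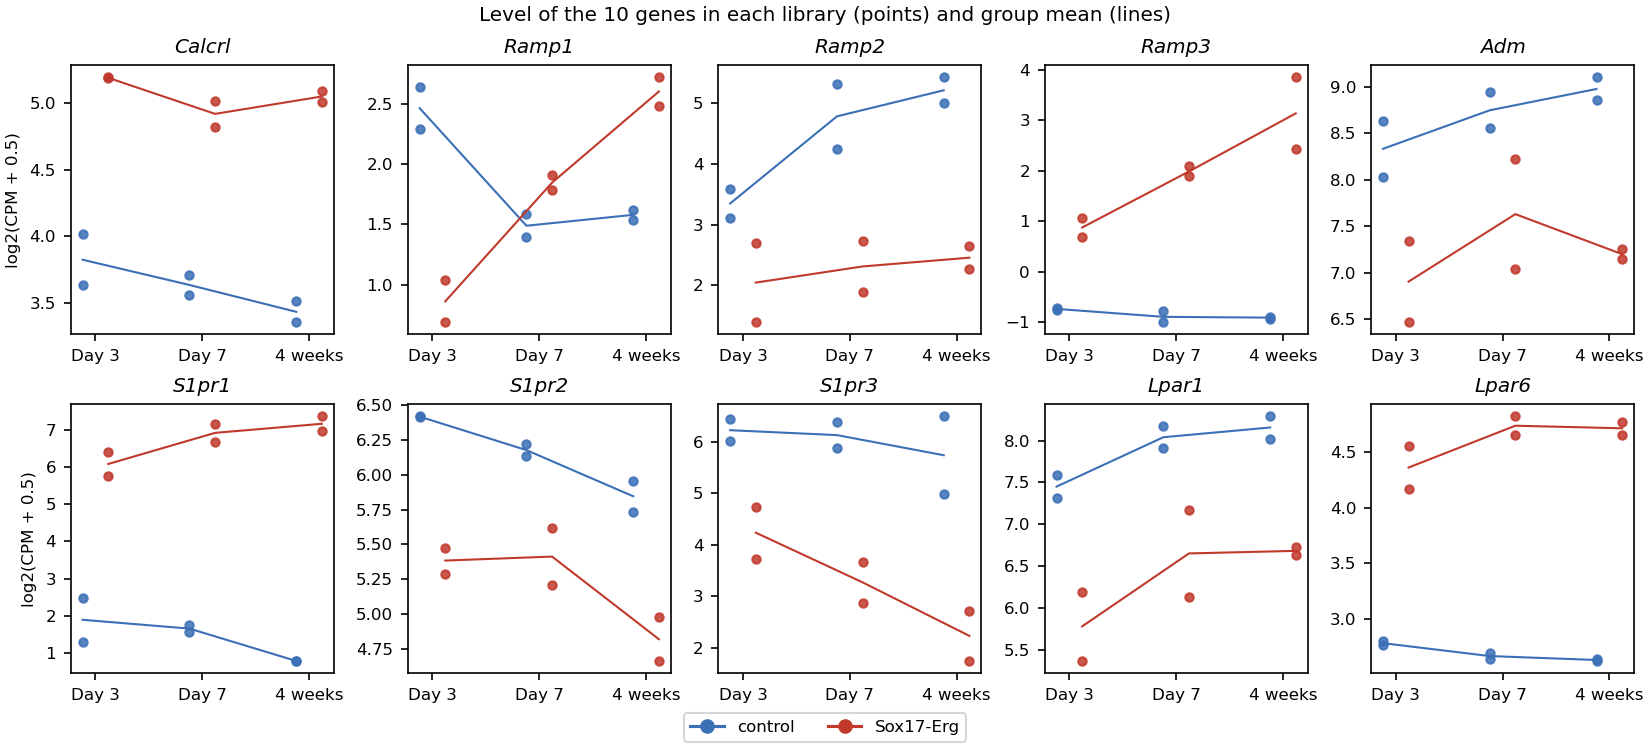
Level of each gene in each library as log2(CPM + 0.5) on Day 3, Day 7 and 4 weeks, with control in blue and *Sox17*-*Erg* in red, points for libraries and lines through group means. The arms are apart at all 3 time points for the 10 genes, in 1 direction for 9 of them, and the lines of *Ramp1* cross.

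The receptor *Calcrl* (chr2:84330626-84425411, minus strand, GENCODE M21 on mm10) was raised early and stayed raised. Control libraries held 11.9 and 15.7 CPM on Day 3, 11.3 and 12.6 on Day 7, and 9.72 and 10.9 at 4 weeks. *Sox17*-*Erg* libraries held 36.0 and 36.2 CPM on Day 3, 31.9 and 27.9 on Day 7, and 33.6 and 31.8 at 4 weeks. Each *Sox17*-*Erg* library was above every control library. The log2 fold change was 1.39 ± 0.15 (standard error; adjusted p = 0.00117) on Day 3, 1.33 ± 0.15 (0.000668) on Day 7 and 1.67 ± 0.15 (0.000118) at 4 weeks by the edgeR test, or 2.62-, 2.5- and 3.17-fold. The effect at 4 weeks was not called different from that on Day 3.

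The RAMPs, which set the peptide that CALCRL binds, did not move together. *Ramp3* (chr11:6658521-6677475, plus strand) was close to absent from control cells, with 3, 2, 0, 2, 1 and 1 counts in the 6 control libraries. *Sox17*-*Erg* libraries held 22 and 37 counts on Day 3, 136 and 73 on Day 7, then 138 and 376 after 4 weeks. In CPM these were 1.11 and 1.59, 3.75 and 3.21, and 4.88 and 13.9. Taking 3 counts per library as the floor for control, *Ramp3* was at least 10.9-fold higher on Day 3, at least 29.5-fold on Day 7 and at least 95.4-fold at 4 weeks (adjusted p = 0.0165, 0.00128 and 0.000208, edgeR). At 4 weeks the bound was 49.5-fold for the first *Sox17*-*Erg* library alone and 141-fold for the second. The Day 3 call was lost on leaving out any 1 of the 4 Day 3 libraries, with adjusted p between 0.0507 and 0.111. Within *Sox17*-*Erg* cells *Ramp3* rose from Day 3 to 4 weeks by a log2 fold change of 2.79 ± 0.55 (adjusted p = 0.00638). The 2 libraries at 4 weeks lay far apart, with a rise of 3.40 without the first and 1.84 without the second, and without the first *Sox17*-*Erg* Day 3 library this rise missed the threshold (adjusted p = 0.0512). An opposite-strand gene model, Gm11978, overlaps an exon of *Ramp3* and had too few counts to be tested.

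*Ramp2*, the usual partner of CALCRL in endothelium, had the opposite course (chr11:101246028-101259546, plus strand). In control cells it was 8.15 and 11.5 CPM on Day 3, 18.4 and 39.5 on Day 7, and 42.3 and 31.5 at 4 weeks. In *Sox17*-*Erg* cells it stayed at 2.13 and 5.99, 3.23 and 6.11, and 5.77 and 4.30 CPM. The rise with time was thus seen in control (log2 fold change 1.92, adjusted p = 0.0226), where leaving out either Day 3 library or the first 4 weeks library ended the call (0.0766 to 0.144). *Sox17*-*Erg* cells were below control by 1.26 ± 0.52 on the log2 scale on Day 3, which did not pass the test (adjusted p = 0.144). They were below control by 2.65 ± 0.53 (0.00953) on Day 7 and by 2.87 ± 0.53 (0.0046) at 4 weeks, or 6.27- and 7.33-fold. On leaving out 1 library the Day 3 difference ranged from -2.2 to -0.75. With same-numbered libraries paired within each time point, the Day 3 difference of -1.37 passed (adjusted p = 0.00776). The difference between the effects at 4 weeks and on Day 3 was -1.62 without pairing (adjusted p = 0.301) and -1.5 with it (adjusted p = 0.0371), and it passed in 2 of 18 alternative settings. Without control replicate 2 or *Sox17*-*Erg* replicate 1 on Day 7, the Day 7 call was lost (-2.00 and -2.24, adjusted p = 0.0562 and 0.0932). *Ramp2* shares 31.7% of its 31-base words with the overlapping gene *Vps25* on the same strand, so its estimate is uncertain. *Vps25* itself differed by -0.15, -0.33 and -0.44 on the log2 scale at the 3 time points (adjusted p = 0.36, 0.0515 and 0.0129, edgeR), and was thus called lower at 4 weeks, as *Ramp2* was.

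*Ramp1*, the partner for CGRP, reversed (chr1:91179822-91225196, plus strand). Control cells held 5.71 and 4.39 CPM on Day 3, 2.5 and 2.13 on Day 7, and 2.58 and 2.4 at 4 weeks. *Sox17*-*Erg* cells held 1.11 and 1.55, 3.25 and 2.94, and 5.10 and 6.07 CPM. The arms did not overlap at any time point, with *Sox17*-*Erg* cells below control on Day 3 and above it afterwards. Against control, *Ramp1* was 3.77-fold lower on Day 3 (log2 fold change -1.92 ± 0.26, adjusted p = 0.0034) and 2.24-fold higher at 4 weeks (1.16 ± 0.25, adjusted p = 0.0089), with Day 7 not passing the test (0.42 ± 0.25, adjusted p = 0.278). The 4 weeks call was lost without the second *Sox17*-*Erg* library of that time (adjusted p = 0.0559). The effect at 4 weeks exceeded that on Day 3 by 3.08 ± 0.36 on the log2 scale (interaction term, adjusted p = 0.00416). *Ramp1* fell over time in control (-1.02, adjusted p = 0.0159) and rose in *Sox17*-*Erg* cells (2.06, adjusted p = 0.00108). The fall in control was lost without the first Day 3 library (0.116) or either library of 4 weeks (0.0714 and 0.0668).

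As a share of the 3 RAMPs, each scaled to CPM per kilobase of exon, *Ramp2* made up 55.6% and 69.6% of the sum in control libraries on Day 3 and 93.6% and 92.1% at 4 weeks. In *Sox17*-*Erg* libraries it made up 35.4% and 52.1% on Day 3 and 25.1% and 9.71% at 4 weeks. *Ramp3* made up 1.78% or less in every control library. Its share in *Sox17*-*Erg* libraries was 44.4% and 33.2% on Day 3, 57% and 45.1% on Day 7, and 50.8% and 75.3% at 4 weeks. Which of the pair was higher in *Sox17*-*Erg* libraries depended on the length used. With the longest transcript in place of all exons, *Ramp2* exceeded *Ramp3* in both Day 3 libraries (52.3% against 30.3%, and 68.5% against 20.2%), in the second of Day 7 (52.9% against 30.8%) and in the first of 4 weeks (40% against 37.5%), but not in the second of 4 weeks (18.2% against 65.4%) or the first of Day 7 (34.1% against 44%). The sum of the 3 RAMPs per kilobase was lower in *Sox17*-*Erg* libraries on Day 3 (1.82 and 3.48, against 4.44 and 4.99 in control) and on Day 7 (4.77 and 5.15, against 6.4 and 12.7). At 4 weeks the arms overlapped on this scale (6.97 and 13.4, against 13.7 and 10.4), but the sum was lower in both *Sox17*-*Erg* libraries with the longest transcript as the length (9.76 and 16, against 29.8 and 22.4) and without division by length (15.8 and 24.3 CPM, against 44.9 and 33.9).

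**Figure D2:**
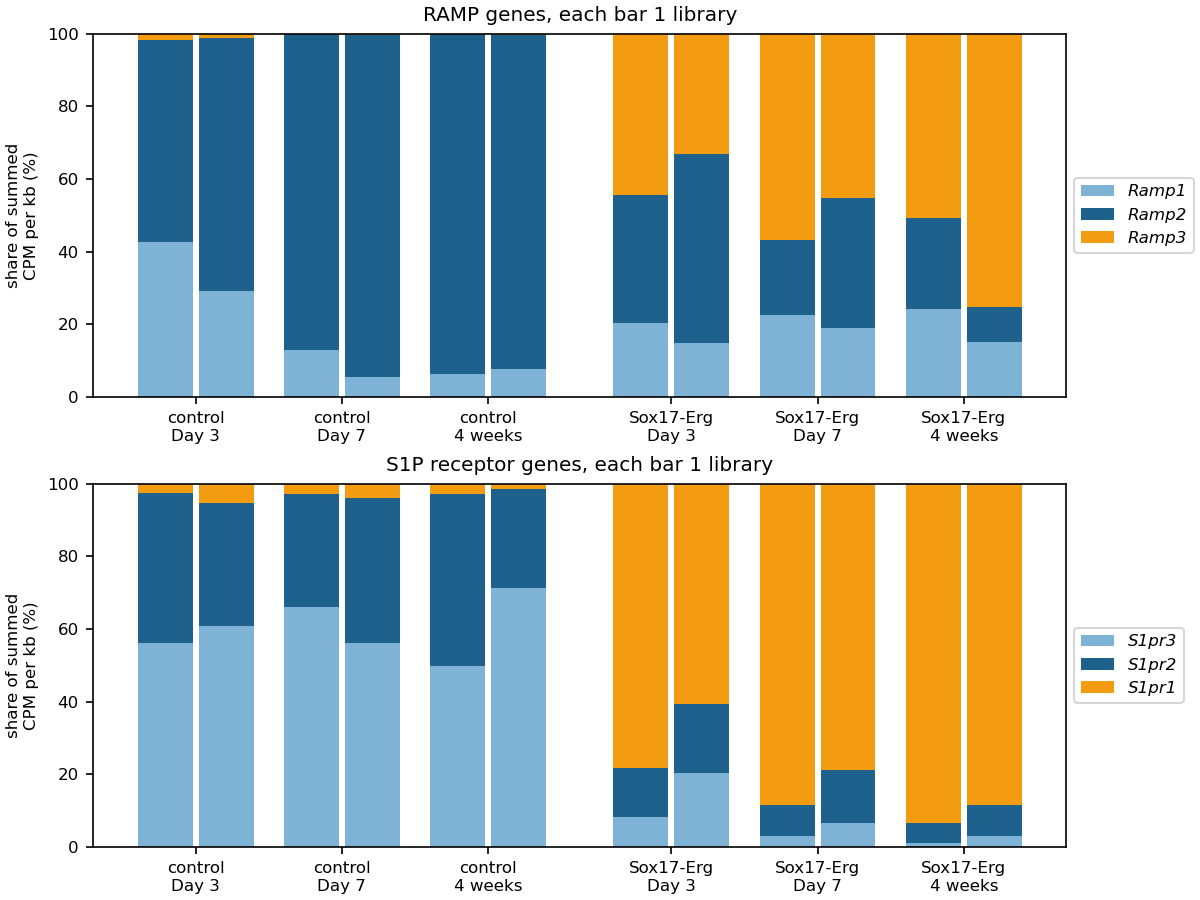
Share (%) of each RAMP gene (top) and each S1P receptor gene (bottom) in the summed CPM per kilobase of its set, with 1 bar per library. *Ramp3* is 1.78% or less of the RAMP sum in control libraries and 33.2% to 75.3% in *Sox17*-*Erg* libraries (20.2% to 65.4% with the longest transcript as the length), and *S1pr1* goes from 5.3% or less to 60.6% or more of the S1P receptor sum.

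*Adm*, which encodes the adrenomedullin peptide (chr7:110627661-110629820, plus strand), was the most abundant of the 10 genes per kilobase in every group and was lower in *Sox17*-*Erg* cells. Control libraries held 261.5 and 395.3 CPM on Day 3, 375.1 and 490 on Day 7, and 547.6 and 461.4 at 4 weeks. *Sox17*-*Erg* libraries held 87.9 and 161.5, 130.7 and 298.1, and 151.7 and 141.2 CPM. The groups did not overlap at any time point, but the spread within *Sox17*-*Erg* cells on Day 3 and Day 7 was wide. *Adm* was called lower than in control at 4 weeks (-1.79 ± 0.41 on the log2 scale, adjusted p = 0.0127). The differences of -1.40 ± 0.40 on Day 3 and -1.01 ± 0.40 on Day 7 did not pass (adjusted p = 0.0532 and 0.115). With pairing within time points they passed (-1.43, adjusted p = 0.00434, and -1.12, adjusted p = 0.00671). They also passed with DESeq2 (-1.42, adjusted p = 0.00232, and -1.02, adjusted p = 0.0345). On leaving out 1 library the Day 7 difference ranged from -1.77 to -0.54. The 4 weeks call was lost without the first control library (0.0617) or either *Sox17*-*Erg* library (0.0766 and 0.0684) of that time.

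*S1pr1*, the main S1P receptor of endothelium, showed the largest fold change of the 9 genes above the floor in control (chr3:115710433-115715072, minus strand). Control libraries held 1.97 and 5.09 CPM on Day 3, 2.46 and 2.85 on Day 7, and 1.23 and 1.22 at 4 weeks. *Sox17*-*Erg* libraries held 84.1 and 53.3 CPM on Day 3, 142 and 101.2 on Day 7, and 163.3 and 123.6 at 4 weeks. The lowest *Sox17*-*Erg* library was thus far above the highest control library. The log2 fold change was 4.31 ± 0.42 (adjusted p = 0.000707), 5.52 ± 0.44 (0.000126) and 6.87 ± 0.47 (2.75e-05), or 19.8-, 45.8- and 117-fold. The effect was larger at 4 weeks than on Day 3 by 2.56 ± 0.57 (interaction term, adjusted p = 0.0486), and this call was lost with pairing within time points (2.55, adjusted p = 0.0646) and on leaving out any of 11 of the 12 libraries.

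The second control library on Day 3, which had the highest control *S1pr1*, also had 14.3 CPM of the endothelial cadherin *Cdh5* against 0.91 in the first, and 2.27 CPM of *Erg* against 0.07. It also held more *Pecam1*, *Tie1*, *Esam*, *Emcn* and *Vwf*, but less *Kdr* (2.82 against 4.00 CPM) and *Tek* (3.65 against 3.97). The second control library on Day 7 also held more *Cdh5* (8.08 against 0.23 CPM) and *Erg* (1.37 against 0.077 CPM), with *S1pr1* at 2.85 against 2.46 CPM. There too *Kdr* was lower (2.53 against 2.77 CPM) and *Esam* nearly equal, and the other endothelial markers were higher. The part of these markers in the control level of *S1pr1* was not tested. Without the second control library of Day 3 the interaction was 1.81 (adjusted p = 0.129), and the fall of *S1pr1* over time in control, -1.50 (adjusted p = 0.0385) with all libraries, was -0.70 (adjusted p = 0.275). That fall also missed the threshold without any 1 of 6 other libraries, the control libraries of Day 7 and 4 weeks and the *Sox17*-*Erg* libraries of 4 weeks (adjusted p 0.051 to 0.167). At Day 3 the effect of *Sox17*-*Erg* without any 1 library stayed between 3.75 and 5.09, the highest without that same control library, and passed each time. The rise of *S1pr1* in *Sox17*-*Erg* cells from Day 3 to 4 weeks, 1.06 (adjusted p = 0.0464), was lost without any of 8 libraries, the 4 compared ones among them (up to 0.23).

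*S1pr3* and *S1pr2*, receptors known from mural cells and fibroblasts, were lower. *S1pr3* (chr13:51408639-51422797, plus strand) was 64.1 and 85.7 CPM in control on Day 3, 82.5 and 58.3 on Day 7, and 31.1 and 89.5 at 4 weeks. In *Sox17*-*Erg* cells it was 12.8 and 26.1, 6.78 and 12.2, and 2.83 and 6.07 CPM. The arms were apart throughout, though the control libraries at 4 weeks differed widely. Against control, *S1pr3* was 7.47-fold lower on Day 7 (-2.90 ± 0.59, adjusted p = 0.0104) and 13.5-fold lower at 4 weeks (-3.76 ± 0.62, adjusted p = 0.00275). The 4 weeks difference was -2.80 without the second control library and -4.43 without the second *Sox17*-*Erg* library of that time, and passed in both cases. At Day 3 the difference of -1.94 ± 0.56 did not pass (adjusted p = 0.0537) and did with pairing within time points (-2.01, adjusted p = 0.00627) and with DESeq2 (-1.97, adjusted p = 0.00179). *S1pr3* also fell from Day 3 to 4 weeks within *Sox17*-*Erg* cells (-2.13 ± 0.60, adjusted p = 0.0251). Without the first *Sox17*-*Erg* library of Day 7 the Day 7 call was lost (adjusted p = 0.1), and the fall over time was lost without the second *Sox17*-*Erg* library of Day 3 (-1.52, adjusted p = 0.146) or the first of 4 weeks (0.169), and was -2.78 without the second of 4 weeks.

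*S1pr2* (chr9:20962361-20976781, minus strand) was 84.7 and 84.9 CPM in control on Day 3, 69.7 and 73.9 on Day 7, and 52.8 and 61.5 at 4 weeks, against 38.7 and 44.1, 36.5 and 48.6, and 24.9 and 31.04 CPM in *Sox17*-*Erg* cells. Against control it was lower by a similar amount at each time, 2.05-, 1.69- and 2.04-fold (adjusted p = 0.00653, 0.0133 and 0.00226). It also declined over time in both arms (-0.57 in each, adjusted p = 0.0294 in control and 0.0283 in *Sox17*-*Erg* cells). The Day 3 call was lost without the first *Sox17*-*Erg* library (0.07), and the Day 7 call without the second control (0.0675) or first *Sox17*-*Erg* library (0.109) or when that time point was fitted alone (0.0695). The declines over time were lost on leaving out any of 4 control libraries (up to 0.18) and any of 5 libraries for *Sox17*-*Erg* cells (up to 0.236). Within the S1P receptor set, *S1pr1* was 1.42% to 5.3% of the sum per kilobase in control libraries. It was 78.2% and 60.6% in *Sox17*-*Erg* libraries on Day 3 and 93.5% and 88.5% at 4 weeks. *S1pr3* was 49.8% to 71.2% of the sum in control libraries and *S1pr2* 27.4% to 47.4%, an order that depends on the length used, since with the longest transcript *S1pr2* exceeded *S1pr3* in the first control library of 4 weeks (52.9% against 44.6%). *S1pr3* was at 1.11% and 2.97% in *Sox17*-*Erg* libraries at 4 weeks.

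The LPA receptors moved in opposite directions. *Lpar1* (chr4:58435255-58553898, minus strand) was 158.1 and 192.5 CPM in control on Day 3, 240.1 and 287.6 on Day 7, and 259.7 and 312.5 at 4 weeks. In *Sox17*-*Erg* cells it was 40.8 and 72.9, 69.6 and 144.1, and 98.8 and 105.9 CPM, below every control library. Against control, *Lpar1* was 3.08-, 2.47- and 2.8-fold lower (log2 fold change -1.62 ± 0.35, -1.31 ± 0.35 and -1.48 ± 0.35, adjusted p = 0.0203, 0.0314 and 0.0143). Each of these calls was lost on leaving out any of 3 libraries of its time point (both controls and the first *Sox17*-*Erg* library on Day 3 and Day 7, the second control and both *Sox17*-*Erg* libraries at 4 weeks), with adjusted p reaching 0.162, 0.176 and 0.0947 in order of time. The Day 7 call was also lost when that time point was fitted alone (-1.32, adjusted p = 0.1), and the difference was -1.96 without the second *Sox17*-*Erg* library of that time. From Day 3 to 4 weeks, *Lpar1* differed by 0.71 in control (adjusted p = 0.157) and 0.85 in *Sox17*-*Erg* cells (adjusted p = 0.0924), and with the replicate block over all libraries both passed (0.71, adjusted p = 0.0494, and 0.91, adjusted p = 0.0193).

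*Lpar6* (chr14:73237895-73243294, plus strand) was even across control libraries, at 6.48 and 6.29 CPM on Day 3, 5.95 and 5.75 on Day 7, and 5.74 and 5.65 at 4 weeks. In *Sox17*-*Erg* cells it was 23.0 and 17.5, 27.8 and 24.7, and 24.8 and 26.8 CPM. Against control it was 3.17-fold higher on Day 3 (1.66 ± 0.15, adjusted p = 0.000618), 4.49-fold on Day 7 (2.17 ± 0.15, adjusted p = 9.59e-05) and 4.53-fold at 4 weeks (2.18 ± 0.15, adjusted p = 2.93e-05). *Lpar6* lies within *Rb1* on the opposite strand and overlaps an exon of it. *Rb1* was also higher, by 0.79, 1.43 and 1.38 on the log2 scale (adjusted p = 0.0193, 0.000827 and 0.000566). The libraries were made with a stranded kit, but the strand setting of the quantification is not given in the sources used here.

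**Figure D3:**
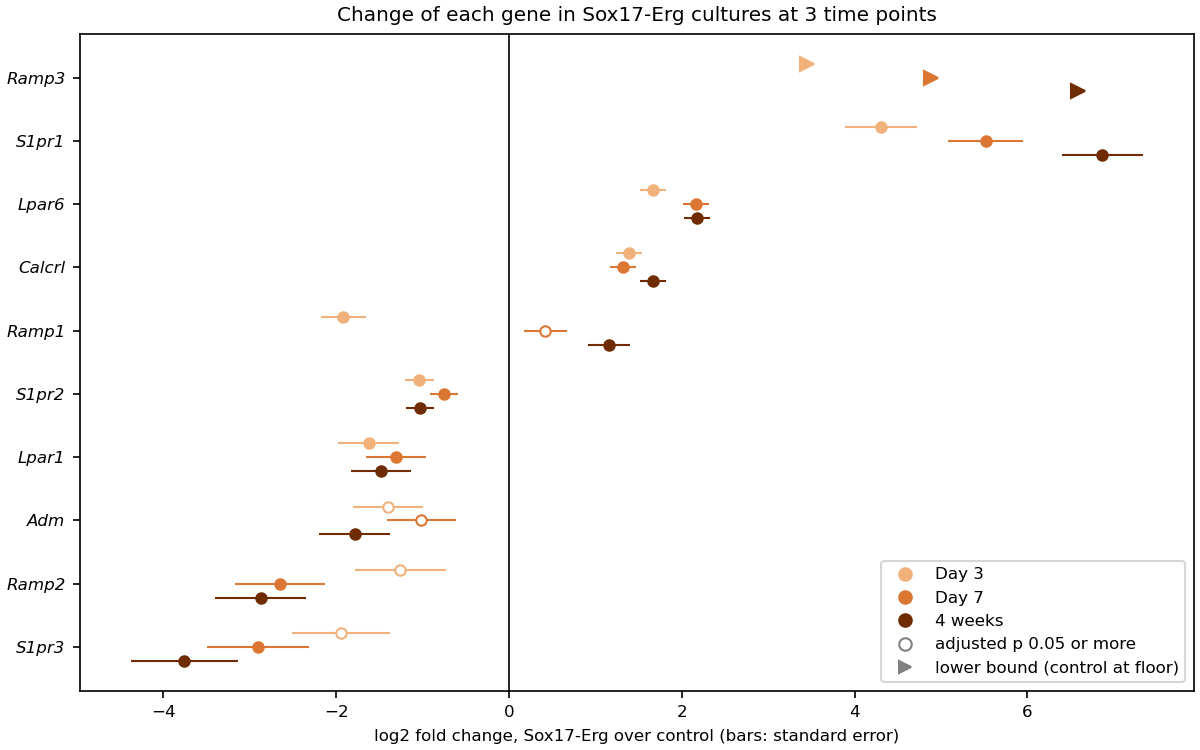
Log2 fold change of *Sox17*-*Erg* over control for each gene on Day 3, Day 7 and 4 weeks (light to dark), with bars for the standard error, filled points for adjusted p under 0.05 and open points otherwise. Triangles for *Ramp3* are lower bounds set by 3 counts per control library. *S1pr1* and *Ramp3* lie farthest right, *S1pr3* farthest left, and *Ramp1* crosses 0.

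Over time alone, from Day 3 to 4 weeks, 1 gene was higher and 3 were lower in control cells (13.9% and 12.6% of all genes), and 3 were higher and 2 lower in *Sox17*-*Erg* cells (15.1% and 15.6%). These comparisons use the same libraries as those between the arms. The genes that rose in *Sox17*-*Erg* cells were *Ramp1*, *Ramp3* and *S1pr1*, and those that fell were *S1pr2* and *S1pr3*. Of these 5 calls, those of *Ramp3*, *S1pr1*, *S1pr2* and *S1pr3* were lost on leaving out single libraries, as given above. In control cells *Ramp2* was called higher and *Ramp1*, *S1pr1* and *S1pr2* lower, and each of these calls was lost in the same way. The signed log2 fold change of *Sox17*-*Erg* over control was higher at 4 weeks than on Day 3 for 2 genes, *Ramp1*, which went from lower to higher, and *S1pr1*, which was higher at both times. Of all genes 2.22% were called in this direction and 0.987% in the other.

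In order of mean CPM per kilobase, control cells at 4 weeks expressed *Adm* (312), *Lpar1* (66.7), *S1pr3* (13.5), *Ramp2* (11.2), *S1pr2* (7.17), *Calcrl* (2.11), *Lpar6* (1.05), *Ramp1* (0.82), *S1pr1* (0.40) and *Ramp3* (0.02). *S1pr3* and *Ramp2* overlapped between libraries, and the other neighbours did not. *Sox17*-*Erg* cells at 4 weeks expressed *Adm* (90.4), *S1pr1* (47.1), *Lpar1* (23.9), *Ramp3* (6.82), *Calcrl* (6.7), *Lpar6* (4.78), *S1pr2* (3.51), *Ramp1* (1.85), *Ramp2* (1.52) and *S1pr3* (0.998), where *Ramp3* overlapped *Calcrl*, *Ramp1* overlapped *Ramp2* and *Ramp2* overlapped *S1pr3*. *S1pr1* was thus in the ninth place in control and the second in *Sox17*-*Erg* cells, and *S1pr3* in the third and the last. With the longest transcript as the length, *S1pr3* was in the fourth place in control, behind *Ramp2* (13.5 against 25), and the places of *S1pr1* were as before.

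Of 55 further genes of these pathways, 45 were tested. In order of time, 5, 6 and 10 of the 45 were higher in *Sox17*-*Erg* cells (7.19%, 9.48% and 11.9% of all genes) and 6, 3 and 4 lower (5.13%, 7.93% and 11% of all genes). Of 9 other adrenomedullin and CGRP genes, 4 were tested and 2 were higher, both at 4 weeks. *Pam*, which amidates adrenomedullin into its active form, was 543.4 and 496.7 CPM in control and 957.3 and 919.5 in *Sox17*-*Erg* cells (0.85 ± 0.13, adjusted p = 0.00179). *Ackr3*, a receptor that scavenges adrenomedullin and chemokines, was 4.21 and 1.91 against 16.7 and 17.6 CPM (2.46 ± 0.48, adjusted p = 0.00603). Among 3 tested LPA receptors outside the 10, *Lpar4*, which belongs to the same P2Y-related family as LPAR6, was higher at every time, by 2.99 ± 0.42, 2.47 ± 0.41 and 1.91 ± 0.41 (adjusted p = 0.00416, 0.00421 and 0.00945). *Lpar3* was higher at 4 weeks (1.38 ± 0.25, adjusted p = 0.0042).

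Of 11 tested genes for synthesis, transport and breakdown of these lipids, 3 were lower on Day 3, 1 on Day 7 and 1 at 4 weeks, where 1 was higher. *Plpp3*, a phosphatase that degrades LPA and S1P outside the cell, was lower on Day 3 (-1.85 ± 0.51, adjusted p = 0.0451), as was *Plpp1* (-0.997, adjusted p = 0.0296). *Sgpp1*, which dephosphorylates S1P inside the cell, was lower by 0.58 to 0.71 at each time. It was the only gene lower on Day 7 and 4 weeks, and *Plpp2* the only one higher (0.67, adjusted p = 0.0138).

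Among 8 G protein alpha subunits, *Gnaq* was higher than in control at each time, by 0.57, 0.83 and 0.97 (adjusted p = 0.0201, 0.00231 and 0.000664), and *Gna12* was higher on Day 3 and Day 7 (0.67 and 0.45). *Gnai1*, a subunit that inhibits adenylyl cyclase, was lower on Day 7 and 4 weeks (-1.24 and -1.98, adjusted p = 0.0155 and 0.00119). Of the 9 adenylyl cyclases, which make cyclic AMP, *Adcy5* was lower on Day 3 (-1.99 ± 0.25, adjusted p = 0.00243) and higher at 4 weeks (0.96 ± 0.22, adjusted p = 0.0124). *Adcy1* was higher on Day 7 and 4 weeks (1.36 and 1.16), and *Adcy4* was lower on Day 3 (-0.82). *Adcy3* was the gene of this list that was lower at 4 weeks (-0.45, adjusted p = 0.0479).

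*Rapgef4* and *Rapgef3* encode EPAC proteins, which cyclic AMP activates to turn on the small GTPase Rap1. *Rapgef4* was at 0 and 2 counts in control at 4 weeks, beside 21.98 and 17.52 CPM in *Sox17*-*Erg* cells, which is at least 200-fold higher against a floor of 3 counts per library (adjusted p = 0.000185). At Day 7 it was higher by 4.18 ± 0.70 (adjusted p = 0.0044). *Rapgef3* was higher on Day 7 (1.08, adjusted p = 0.00126) and 4 weeks (0.67, adjusted p = 0.00799). *Arrb1*, a beta-arrestin that desensitizes and internalizes such receptors, was lower than in control by 1.59, 2.15 and 1.90 in order of time (adjusted p = 0.0165, 0.00254 and 0.00303). The receptor kinases *Grk2* and *Grk6*, which also act in desensitization, were higher on Day 3 (0.39 and 0.65, adjusted p = 0.0298 and 0.0238).

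**Figure D4:**
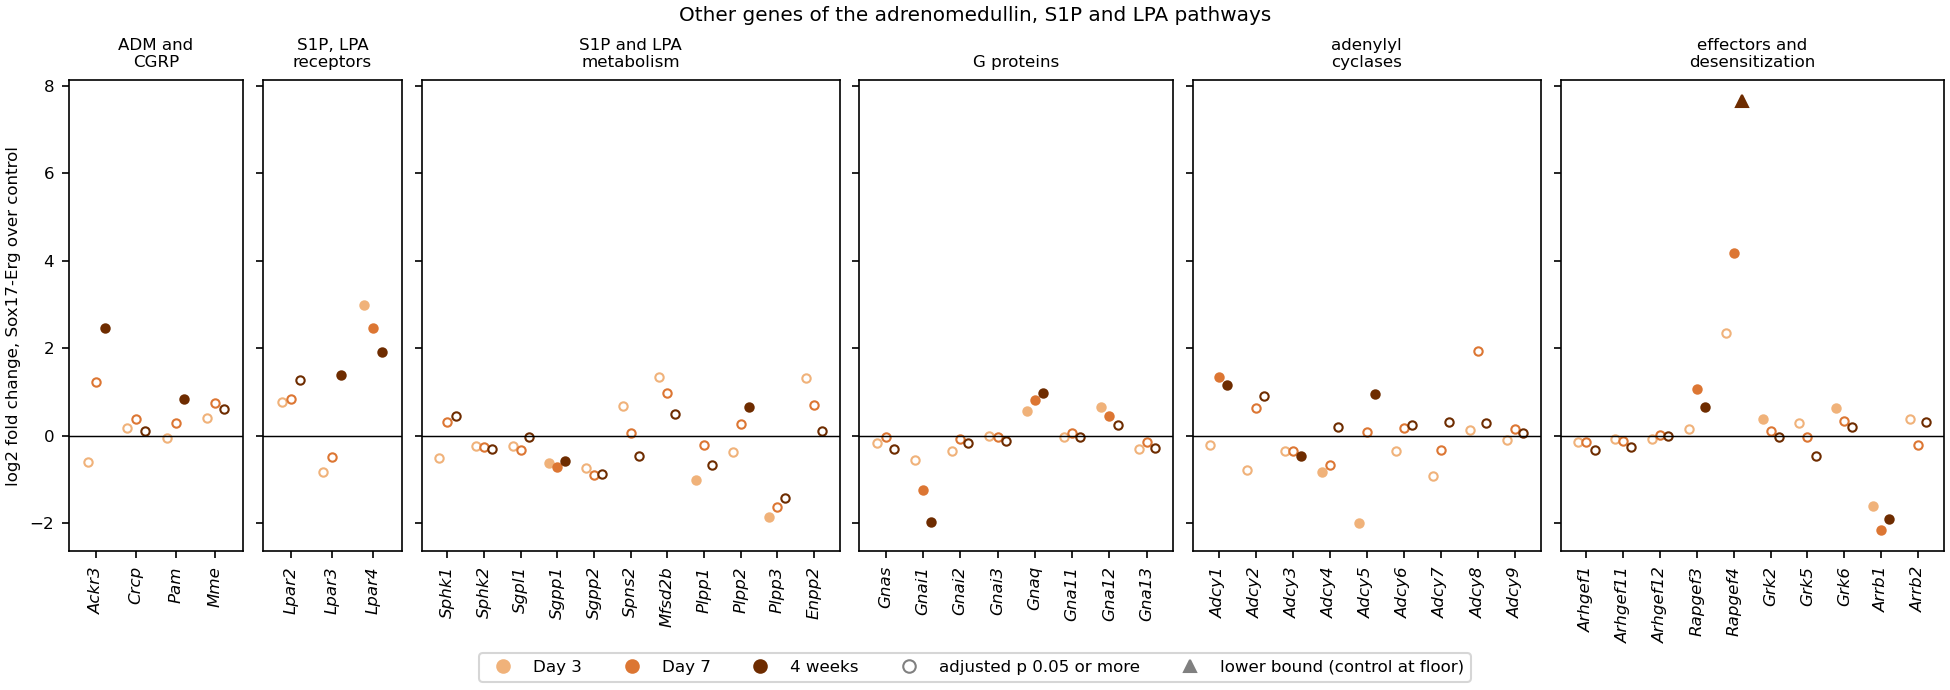
Log2 fold change of *Sox17*-*Erg* over control for the 45 other pathway genes tested, by sub-list, on Day 3, Day 7 and 4 weeks (light to dark). Filled points have adjusted p under 0.05, and the triangle for *Rapgef4* is a lower bound. *Lpar4*, *Ackr3* and *Rapgef4* are among the genes above 0, and *Arrb1*, *Gnai1* and *Plpp3* are among those below 0.

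Markers of several other cell types differed between the arms. In order of time, 4, 5 and 6 of the 8 endothelial markers were higher. Of 7 markers of pericytes and smooth muscle, 2, 4 and 4 were higher (*Rgs5* and *Notch3*, then also *Cspg4* and *Myh11*) and *Kcnj8* and *Abcc9* were lower at 4 weeks, with summed levels of 638 to 861 CPM in control and 687 to 1630 CPM in *Sox17*-*Erg* libraries. All 4 mesothelial markers were lower at 4 weeks, where their sum was 777 to 1220 CPM in control and 145 to 223 CPM in *Sox17*-*Erg* libraries. Of 8 fibroblast markers, 1, 3 and 4 were lower and *Postn* was higher on Day 7 and 4 weeks. Cardiomyocyte markers were lower in 2, 2 and 5 of 6 cases, at sums of 614 to 1520 CPM in control and 324 to 677 CPM in *Sox17*-*Erg* libraries. Macrophage markers summed to 44.3 to 1190 CPM in control and 58.1 to 403 CPM in *Sox17*-*Erg* libraries, and 0 of 6 were called between the arms at any time by edgeR or by DESeq2, with 0 at an unadjusted p under 0.05. Of 4 lymphatic markers *Prox1* was higher at each time and *Pdpn* lower on Day 3 and Day 7, with sums of 125 to 154 CPM in control and 79.8 to 166 CPM in *Sox17*-*Erg* libraries. The part of any of these in the levels of the 10 genes was not tested.

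Over the 12 libraries, the genes with the most similar pattern of log2(CPM + 0.5) among 15496 tested were *Jag1*, *Cdk17* and *Erg* for *Calcrl* (Pearson's r 0.984, 0.982 and 0.981), *Bicc1*, *Baiap2* and *Ssh2* for *Ramp2* (0.987, 0.983 and 0.98), and *Mycl*, *Myct1* and *Tspan18* for *S1pr1* (0.993, 0.993 and 0.992). The 12 points fall into the 2 arms, so these values largely describe the difference between arms.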

How the data were processed

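RNA of 12 libraries, 2 in each of 6 groups, was measured by stranded paired-end mRNA sequencing. The authors demultiplexed with bcl2fastq 2.20.0, trimmed for high GC content with BBDuk, estimated counts per gene with Salmon on mm10 (version not given in the sources used here) and tested with DESeq2. The deposited values are whole-number estimated counts and were used as given, with no batch stated. Replicate numbers came from the sample titles.

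Counts were tested with edgeR 4.0.16 (R 4.3.3) after filterByExpr (minimum count 10, minimum total 15) with TMM scaling, 1 model over all 6 groups with 6 residual degrees of freedom, and Benjamini-Hochberg adjustment over 15506 genes. CPM used TMM-scaled totals, and levels per kilobase used the union of GENCODE M21 exons. DESeq2 1.42.0 and other settings were alternatives. Same-numbered libraries of both arms deviated together within time points (correlation 0.29 at Day 3, 0.4 at Day 7 and 0.21 at 4 weeks), so pairing within time points is given where it changed a call.

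The genes and lists were chosen with earlier results of these data known. All 10 genes were named, and of the pathway lists those called with the largest changes in each direction. The edgeR step was tested on simulated data. It missed the recovery of changed genes first required of it, and that requirement was replaced after its result was seen by checks of sign, bias, false calls, p-values of unchanged genes and recovery of genes of low dispersion, which it passed. Genes of low count or high spread with moderate changes can therefore go uncalled with 2 libraries a group. The order per kilobase by the longest transcript, the RAMP sum on other length scales and the bounds of *Ramp3* for single libraries were added after the data were seen.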

Additional observations from a re-analysis of the deposited data

Results flagged for a closer look

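The effect of *Sox17*-*Erg* on *Ramp1* differed between time points by an interaction term, by 3.08 on the log2 scale from Day 3 to 4 weeks (adjusted p = 0.00416, edgeR), with *Sox17*-*Erg* libraries at 1.11 and 1.55 CPM against 5.71 and 4.39 in control at Day 3, and at 5.10 and 6.07 against 2.58 and 2.4 at 4 weeks. The same term for *S1pr1* was 2.56 (adjusted p = 0.0486), and it missed the threshold with pairing within time points (adjusted p = 0.0646).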

How the results depend on the processing

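Over 570 re-estimates of the *Sox17*-*Erg* effects on the 10 genes under other settings, 0 changed direction. With 2 libraries a group, a gene of moderate change and wide spread can go uncalled, and a library left out leaves an arm with 1 sample, which is then assumed to vary like the other groups. Of the 10 genes, 3 were lower at Day 3, against 5 with DESeq2, a minimum count of 30 or a replicate block over all libraries, and 6 with no filter or the replicate block within each time point. At Day 7, 4 were lower, against 2 when fitted on that time point alone. In control over time 1 was higher, against 2 with no filter or the replicate block. For the difference in effect 2 were higher, against 1 with either replicate block, and 0 were lower, against 2 with no filter and 1 with the block within time points. At an adjusted p under 0.01, the lower counts were 1 at Day 7 and 3 at 4 weeks, control over time had 0 higher and 0 lower, *Sox17*-*Erg* over time had 0 lower, and the difference in effect had 1 higher. Calls that the block within time points changed are given beside the genes. The block over all libraries lost *S1pr1* over time in *Sox17*-*Erg* cells (adjusted p = 0.0514) and gained *Lpar1* over time there (0.0193) and in control (0.0494), and same-numbered libraries did not deviate together between Day 3 and 4 weeks (-0.11 in control, -0.046 in *Sox17*-*Erg*).

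Of all genes, 1115 were higher at Day 3 (1973 with the block within time points, 304 at 0.01) and 795 lower (1250 with DESeq2, 1333 with no filter, 1619 with that block, 117 at 0.01). At Day 7, 1470 were higher (609 on that time point alone, 691 at 0.01) and 1230 lower (2065 with the block, 479 on that time point alone, 410 at 0.01). At 4 weeks, 1845 and 1703 became 1080 and 742 at 0.01. Over time, 2154 higher and 1948 lower in control became 948 and 771, and 2339 and 2424 in *Sox17*-*Erg* cells became 1124 and 996. The difference in effect was higher for 345 (670 with DESeq2, 732 with no filter, 638 with the block, 87 at 0.01) and lower for 153 (357, 447, 430 and 36). The cause of these shifts was not tested.

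Leaving out 1 library, the 10 genes had 3 to 4 higher and 1 to 4 lower at Day 3, 4 to 4 and 0 to 5 at Day 7, 4 to 5 and 3 to 5 at 4 weeks, 0 to 1 and 0 to 3 in control over time, 2 to 4 and 0 to 2 in *Sox17*-*Erg* over time, and 1 to 2 and 0 to 0 for the difference in effect. All genes ranged over 201 to 1104 higher and 66 to 1001 lower at Day 3, 623 to 1371 and 297 to 1292 at Day 7, 1049 to 1885 and 648 to 1710 at 4 weeks, 908 to 2272 and 795 to 1981 in control over time, 1239 to 2646 and 807 to 2433 in *Sox17*-*Erg* over time, and 127 to 355 and 44 to 151 for the difference in effect. Some values whose direction is not called turned on leaving out 1 library. *S1pr3* in control over time ranged from -1.26 to 0.26 (the last without control 4 weeks replicate 1). Over time in *Sox17*-*Erg* cells, *Ramp2* ranged from -0.19 to 1.25 and *Adm* from -0.085 to 0.74 (the lowest without *Sox17*-*Erg* Day 3 replicate 1). The difference in effect ranged from -0.72 to 0.12 for *Adm*, -0.18 to 0.62 for *Lpar1* and -0.18 to 0.19 for *S1pr2*, which was -0.000658 with no filter.

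The mean change in share from control to *Sox17*-*Erg*, in percentage points, ranged on leaving out a library from -0.312 to 4.18 for *Ramp1*, -55 to -49.4 for *Ramp2*, 46.2 to 54.4 for *Ramp3*, 75.3 to 81.1 for *S1pr1*, -28.5 to -21.8 for *S1pr2* and -56.6 to -49.5 for *S1pr3*. Without division by length it was 9.57 for *Ramp1*, -41.6 for *Ramp2*, 32.1 for *Ramp3*, 66.1 for *S1pr1* and -39.3 for *S1pr3*, and with the longest transcript it was 37.7 for *Ramp3*.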

Other observations

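Within the *Sox17*-*Erg* cultures, the first library of Day 3 and of Day 7 held more *Sox17* than the second (781 against 432 CPM, and 999 against 791) and more *S1pr1*, and less *Adm*, *Ramp2*, *Lpar1* and *S1pr3*. At 4 weeks the first library again held more *Sox17* (1040 against 914 CPM) and *S1pr1* (163.3 against 123.6) and less *Lpar1* and *S1pr3*, but more *Adm* (151.7 against 141.2) and *Ramp2* (5.77 against 4.30). Markers of cell types differed between the same libraries. On Day 3 the first held less *Tcf21* (14.98 against 46.62 CPM), *Pdgfra* (113.7 against 292.4) and *Lum* (5.46 against 25.9) and more *Cdh5* (208.2 against 148.1) and *Kdr* (106.1 against 42.27). Of the other endothelial markers, the first held somewhat more *Tek* and *Tie1* but less *Vwf* (0.96 against 2.15 CPM) and *Esam* (2.28 against 2.80). *Pecam1* and *Emcn* were nearly equal in the pair. For these named markers the Day 7 pair differed in the same directions, with *Tcf21* at 48.19 against 173.6 CPM, *Pdgfra* at 198.3 against 612.1 and *Cdh5* at 400.1 against 248.3. So did the 4 weeks pair, with *Tcf21* at 86.57 against 118.4 CPM and *Cdh5* at 495.9 against 393.7. Against these directions went *Col1a1* (16240 against 14320 CPM), *Tek* (9.54 against 10.55) and *Vwf* (4.96 against 6.33) on Day 7. At 4 weeks *Thy1* (132.3 against 121.6 CPM) and *Postn* (1542 against 1346) did. The part of these markers in the differences was not tested. These are values of single pairs of libraries, chosen after they were seen, and were not tested.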
